A study of Homo sapiens with 6 samples.

Results

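The regions described here are places in the genome of the small cell lung cancer line H82 that carried the promoter mark H3K4me3 with no counterpart in the line H524. They were chosen from the deposited peak lists as H82 H3K4me3 regions narrower than 2000 bp with no H524 H3K4me3 region within 1 kb. This gave 5767 of the 18208 H82 H3K4me3 regions, out of 61250 regions in the 4 lists. H82 and H524 are established human small cell lung cancer cell lines, cultured without treatment. Each line had 1 library for NeuroD1, 1 for H3K4me3 and 1 input without antibody, and the 4 antibody libraries were used. The labels name no genetic change or added agent in either line. With 1 library per antibody and line there was no spread between replicates, so no p-value is given, and intervals are 95% intervals for counting error only.

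H3K4me3, trimethylation of lysine 4 on histone H3, is laid down around transcription start sites of active and poised genes, and forms wide stretches at strongly active ones. Short, weak stretches also occur at enhancers. NeuroD1 is a basic helix-loop-helix transcription factor of developing neurons that binds E-box motifs, and it defines a neuroendocrine subtype of small cell lung cancer. A region marked in a line is therefore a candidate promoter or strong enhancer there. Which genes lie at the regions is not analysed here, and regions are named by their hg19 coordinates.

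The H82-only regions were mostly short and low in score. Their median width was 402 bp, with a middle range of 316 to 611 bp and extremes of 256 and 1989 bp. The median score was 2.84, on the −log10 scale on which the authors' peak scores were read. Only 7.75% had more than 1 summit. These values belong to the rule or move with it and are given as description. The 11222 other narrow H82 regions, which had an H524 H3K4me3 region within 1 kb, had a median width of 624 bp and a median score of 3.83. Of the 16989 narrow H82 regions, 33.9% were H82-only. That share was 54.6% (52.2 to 57.0) in the lowest of 10 score classes and 14.4% (12.8 to 16.2) in the highest. It was 55.3% (53.1 to 57.6) below 300 bp and 14.9% (13.7 to 16.1) from 1000 bp upward.

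**Figure D1:**
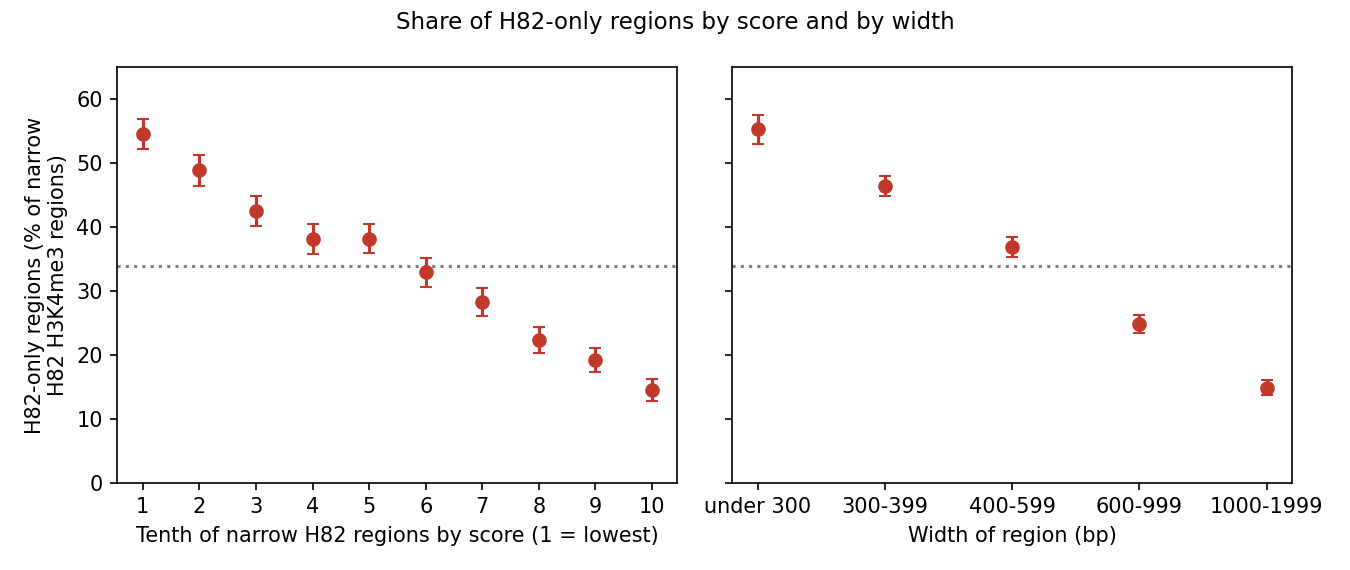
The percentage of narrow H82 H3K4me3 regions that are H82-only is plotted by score class (left, 10 classes of near-equal size, 1 is the lowest) and by width in bp (right), with exact 95% intervals and a dotted line at the 33.9% over all narrow regions. The percentage is lower at higher scores, 54.6% in the lowest and 14.4% in the highest class, and in wider regions.

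Scores were coarse. The 5 most frequent values (1.49, 2.14, 2.84, 3.59 and 4.36) accounted for 1791 of the 5767 regions (31.1%), and the lowest of them alone for 582. The limits of the rule cut through similar regions. The widest included region, of 1989 bp with a score of 4.36, was on chromosome 12 (32111982 to 32113970). It was followed by a region of 1981 bp on chromosome 6 (31789001 to 31790981) and by 1 of 1974 bp on chromosome 4 (186455593 to 186457566), each with a score of 5.23. The narrowest left out, at 2025, 2032 and 2034 bp, had scores of 6.58, 3.96 and 13.1. They were on chromosome 13 (50760060 to 50762084), chromosome 4 (113204818 to 113206849) and chromosome 12 (120875364 to 120877397). In all, 117 H82-only regions were left out for their width. At the limit of distance, the 3 closest included regions lay 1.001 to 1.002 kb from H524 H3K4me3 with scores of 1.43 to 4.36. The 3 closest left out lay 0.996 to 1 kb away with scores of 2.17 to 3.33.

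H82-only refers to the lists and often did not mean a locus without the mark in H524. An H524 H3K4me3 region lay within 2 kb of 1103 of the regions (19.1%) and within 5 kb of 1947 (33.8%). At the other end, 2091 (36.3%) were over 50 kb from any H524 H3K4me3 region and 85 (1.47%) over 1 Mb. Within the H82 list, 661 regions (11.5%) lay within 1 kb of an H82 H3K4me3 region that H524 shared. Another 1370 (23.8%) lay within 1 kb of other H82-only regions alone. The remaining 3736 (64.8%) had no other H82 H3K4me3 region within 1 kb, and 1084 (18.8%) had none within 50 kb. The share with any H82 neighbour within 1 kb was 35.2% (34.0 to 36.5), against 47.3% of all H82 H3K4me3 regions and 53.4% (52.4 to 54.3) of the other narrow ones. The median distance to the nearest other H82 H3K4me3 region was 1.903 kb, against 0.868 kb for the other narrow regions. These neighbour values move with the rule, which places H82 regions beside H524 H3K4me3 among the others, and are given as description. The median for H82-only regions was 1136 bp where only direct overlap counted as shared, and 8770 bp with a separation of 5 kb.

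Without weighting for width or score, NeuroD1 of the same line did not differ beyond counting error between the H82-only and the other narrow regions. With the weighting given below, its share was higher on the H82-only ones. NeuroD1 of H524 was less frequent on the H82-only regions either way. H82 NeuroD1 overlapped 336 of the 5767 regions (5.83%, 5.24 to 6.46), near the 6.34% of all H82 H3K4me3 regions. The share was 5.24% (4.83 to 5.67) in the other narrow regions. H82-only minus others was 0.587 percentage points, with a Newcombe interval of −0.131 to 1.34. H524 NeuroD1 overlapped 465 (8.06%, 7.37 to 8.80), against 17.9% of all H82 H3K4me3 regions and 20.1% (19.3 to 20.8) of the other narrow ones. That difference was −12.0 points (−13.02 to −10.98), a 2.49-fold lower share. The H524 NeuroD1 list holds 5.34-fold more regions than that of H82, so a share for one NeuroD1 list and a share for the other are not on a common scale.

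H82-only regions were narrower than the rest, and NeuroD1 overlapped wide regions more often, so the comparison was repeated inside classes of width. This was chosen after the widths were known. In all 5 width classes the H82 NeuroD1 share was higher in H82-only regions, and the H524 NeuroD1 share was lower. From 1000 bp upward, H82 NeuroD1 overlapped 13.2% (10.3 to 16.5) of the 501 H82-only regions and 8.57% (7.58 to 9.66) of the 2869 others. In the same class H524 NeuroD1 overlapped 14.8% (11.8 to 18.2) and 29.7% (28.0 to 31.4). Below 300 bp the H82 NeuroD1 shares were 2.97% (2.04 to 4.16) and 1.84% (1.05 to 2.97), with an interval of the difference that included 0 (−0.287 to 2.51). The same held in the class from 400 to under 600 bp (−0.315 to 2.43).

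**Figure D2:**
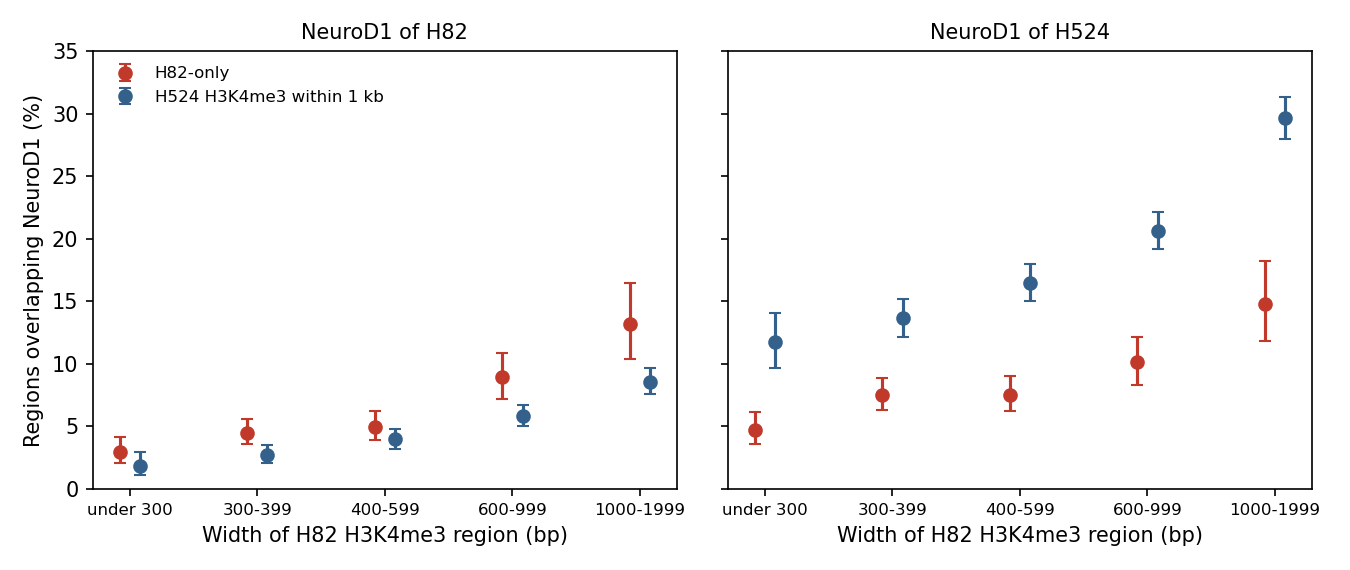
The percentage of narrow H82 H3K4me3 regions overlapping NeuroD1 of H82 (left) and of H524 (right) is plotted by width class in bp, for H82-only regions (red) and for those with H524 H3K4me3 within 1 kb (blue), with exact 95% intervals. In each class the red points are above the blue ones for H82 NeuroD1 and below them for H524 NeuroD1.

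With the other narrow regions weighted to the width classes of the H82-only ones, the difference was 1.93 points (1.22 to 2.64) for H82 NeuroD1 and −8.51 points (−9.55 to −7.48) for H524 NeuroD1. Weighting by 5 classes of score gave 2.11 points (1.42 to 2.80) and −8.71 points (−9.73 to −7.69). The H82 NeuroD1 difference depended on the distance rule. Where any H82 region without a direct H524 overlap counted as H82-only, it was −0.907 points (−1.59 to −0.225), and with a separation of 5 kb it was 2.30 points (1.44 to 3.24). By chromosome, the H524 NeuroD1 share was lower in H82-only regions on 23 of 23 chromosomes, with intervals below 0 on 20. The H82 NeuroD1 share was higher on 13 and lower on 10, with intervals above 0 on 2.

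By occupancy in both lines, 145 H82-only regions (2.51%, 2.13 to 2.95) overlapped NeuroD1 of H82 and of H524, against 3.87% of all H82 H3K4me3 regions. H82 NeuroD1 alone was on 191 (3.31%, 2.87 to 3.81), a share 1.97-fold higher than the 1.68% (1.45 to 1.94) of the other narrow regions. H524 NeuroD1 alone was on 320 (5.55%, 4.97 to 6.17), 2.98-fold below the 16.5% (15.8 to 17.2) of the others. Neither was on 5111 (88.6%, 87.8 to 89.4), against 78.2% (77.5 to 79.0). Where H82 NeuroD1 sat on an H82-only region, 43.2% (37.8 to 48.6) of the regions also overlapped NeuroD1 of H524. On the other narrow regions this was 67.9% (63.9 to 71.6), a difference of −24.7 points (−31.0 to −18.1). Thus 465 regions had NeuroD1 listed in H524 with no H524 H3K4me3 within 1 kb and with the mark in H82.

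Seen from the factor, 328 H82 NeuroD1 regions lay on H82-only marks. Of these, 164 (50%, 44.5 to 55.5) overlapped a NeuroD1 region of H524. Over all 3854 H82 NeuroD1 regions the share was 53.6% (52.0 to 55.2), inside that interval. The 50% was also close to the 50.4% (48.5 to 52.3) of the 2722 H82 NeuroD1 regions on no H82 H3K4me3, with a difference of −0.441 points (−6.14 to 5.26). It was below the 68.8% (64.8 to 72.6) of the 567 on other narrow regions, by −18.8 points (−25.3 to −12.1). Ranked by score within the H82 NeuroD1 list, the 328 stood at a median percentile of 60.02, and their median width was 499 bp. The corresponding values were 54.5 and 428 bp on the other narrow regions, and 47.8 and 403 bp off the mark. In H82-only regions with H82 NeuroD1, the centres of mark and factor lay a median of 282 bp apart, with a middle range of 136 to 461 bp. Overlap itself limits this distance, so it is given as description.

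Around the regions, the lists also differed at a distance. The nearest H82 NeuroD1 centre was 2 to 5 kb away for 6.21% (5.60 to 6.86) of the H82-only regions and for 2.71% (2.42 to 3.03) of the others. For H524 NeuroD1 the shares in this range were 11.5% (10.7 to 12.4) and 6.43% (5.99 to 6.90). Below 1 kb the H524 order was the opposite, with 3.73% (3.25 to 4.25) against 8.20% (7.70 to 8.72) inside 0.25 kb. H82-only regions are by rule over 1 kb from H524 H3K4me3, and the part of NeuroD1 on such neighbours in these shares was not tested.

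**Figure D3:**
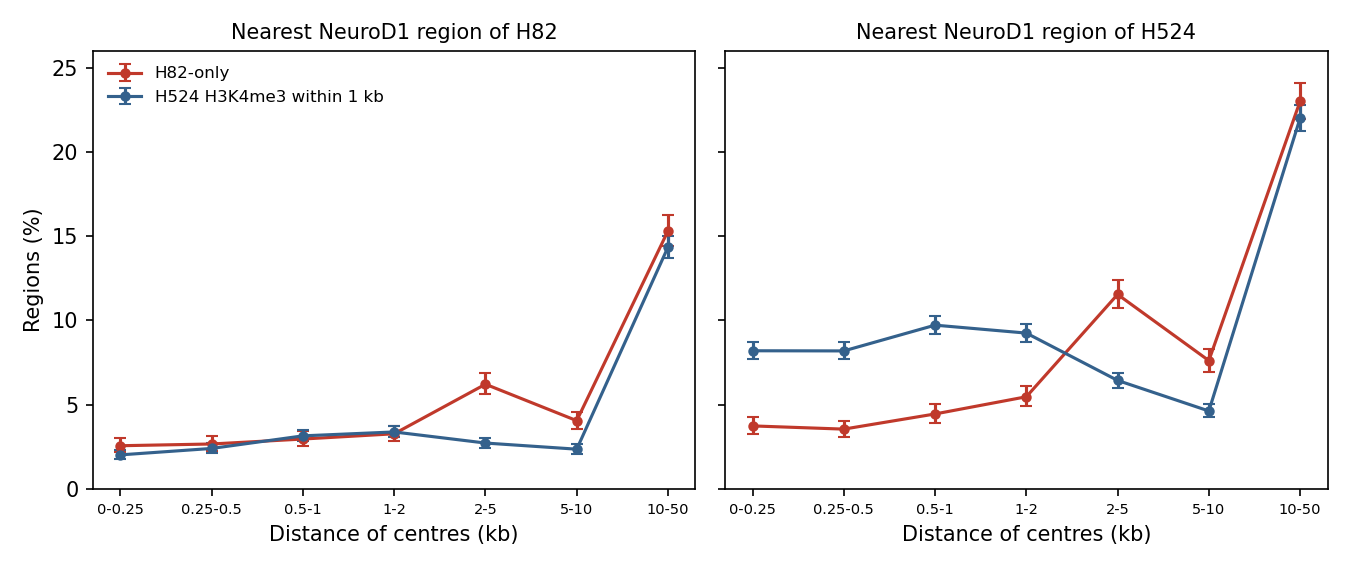
The percentage of H82-only regions (red) and of other narrow H82 H3K4me3 regions (blue) is plotted by distance in kb between the centre of the region and the nearest NeuroD1 centre of H82 (left) or H524 (right), in bins of unequal width, with exact 95% intervals. For H524 the blue points are higher below 2 kb and the red ones from 2 to 10 kb.

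NeuroD1 was most frequent on H82-only regions at middle distances from the H524 mark. H82 NeuroD1 overlapped 3.08% (2.36 to 3.95) of the 1947 regions at 1 to 5 kb, 8.73% (7.44 to 10.2) of the 1729 at 5 to 50 kb and 5.98% (5.00 to 7.08) of the 2091 farther away. H524 NeuroD1 followed the same order with 5.03% (4.10 to 6.10), 11.6% (10.1 to 13.2) and 7.99% (6.86 to 9.23). Median widths in these classes were 391, 405 and 414 bp.

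**Figure D4:**
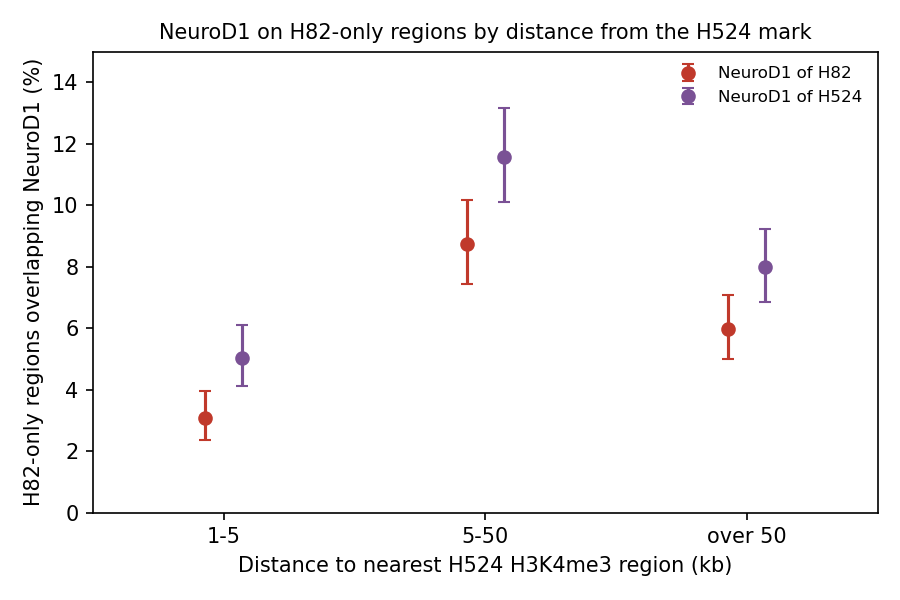
The percentage of H82-only H3K4me3 regions overlapping NeuroD1 of H82 (red) and H524 (purple) is plotted by distance in kb to the nearest H524 H3K4me3 region, with exact 95% intervals. Both are highest at 5 to 50 kb, 8.73% for H82 and 11.6% for H524.

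The rule was also applied in the opposite direction, from the H524 list. By it, 6813 narrow H524 H3K4me3 regions were H524-only. H524 NeuroD1 overlapped 8.84% (8.17 to 9.54) of them and 22.0% (21.2 to 22.8) of the 11311 narrow H524 regions with the H82 mark within 1 kb, a difference of −13.1 points (−14.2 to −12.1). H82 NeuroD1 overlapped 0.382% (0.249 to 0.559) of the H524-only regions and 4.97% (4.58 to 5.39) of the others. These contrasts from the H524 list were not weighted by width or score.

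Of the H82-only regions with H82 NeuroD1, 329 lay away from centromere gaps. They were wider than those without NeuroD1 (median 547 against 398 bp) and higher in score (3.88 against 2.84). More of them had several summits (18.2% against 7.01%). In the other narrow regions the H82 NeuroD1 share also rose with width, from 1.84% below 300 bp to 8.57% from 1000 bp upward. It was 11.3% in the highest of 5 score classes there, against 5.24% over all. Greater width and score are thus not particular to H82-only regions with NeuroD1. How far width alone raises overlap by 1 bp, and summits in the others by NeuroD1, were not tested. Of the 329, the 10 with the highest H3K4me3 scores ranged from 12.4 to 20.7. Of these 10, 6 also overlapped H524 NeuroD1, against 43.2% (37.7 to 48.7) of all 329, a difference not tested.

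The highest was 4247033 to 4247384 on chromosome 19, which was narrow (352 bp) and scored 20.7. No other H82 H3K4me3 region lay within 81.5 kb, and the nearest of H524 was 13.8 kb away. The NeuroD1 regions on it were low in H82 (4246891 to 4247263, score 1.82, rank 3303) and higher in H524 (4246881 to 4247365, score 7.70, rank 4592 in a longer list). A strong mark on NeuroD1 of low rank was thus found in H82, with NeuroD1 and no mark listed in H524.

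The second, 56592518 to 56594363 on chromosome 14, had 3 summits over 1846 bp and a score of 19.8. It overlapped NeuroD1 in H82 (56592422 to 56593231, score 9.68, rank 343) and in H524 (56592265 to 56593280, score 11.5, rank 2189). It belonged to a run of 11 H82-only regions from 56581689 to 56611661, in which 3 overlapped H82 NeuroD1 and 4 H524 NeuroD1. Within this run H524 had 2 H3K4me3 and 6 NeuroD1 regions.

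On chromosome 17, 1531490 to 1532355 scored 18.6, with NeuroD1 scores of 6.11 in H82 and 7.79 in H524 and the nearest H524 mark 53.8 kb away. On chromosome 2, 215493843 to 215495151 scored 14.8 and lay 179 kb from the H524 mark, with NeuroD1 scores of 7.73 and 9.49. It ended a run of 8 H82-only regions from 215483048. The remaining pair with NeuroD1 in both lines was on chromosome 1, at 155164236 to 155165180 (score 14.9, NeuroD1 scores 12.98 and 2.68) and at 165204786 to 165205904 (score 12.4, NeuroD1 scores 6.80 and 13.5).

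The other 4 had NeuroD1 in H82 and none overlapping in H524. The strongest NeuroD1 among them was at 128317899 to 128319013 on chromosome 8, where the mark scored 14.1 and the H82 NeuroD1 region (128317870 to 128319415) scored 44.9 at rank 12. An H524 NeuroD1 region of rank 109 lay 1.05 kb away. At 155661401 to 155662920 on chromosome 1 the mark scored 14.5 and H82 NeuroD1 14.7 (rank 116), with H524 H3K4me3 at 1.60 kb and H524 NeuroD1 at 2.52 kb. At 43123463 to 43124683 on chromosome 1 the mark scored 14.6 and H82 NeuroD1 only 1.65. The nearest H524 NeuroD1 there was 148 kb away and the nearest H524 mark 21.1 kb. At 7386812 to 7387522 on chromosome 17 the scores were 13.8 and 5.34, with H524 NeuroD1 at 79.3 kb and the H524 mark at 154 kb. These 4 therefore range from sites beside H524 signal to 1 at least 79.3 kb from any, in the first 10 Mb of chromosome 17. In that stretch H524 had 99 H3K4me3 regions and H82 232.

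Without H82 NeuroD1 and away from gaps there were 5263 regions, of which 310 (5.89%, 5.27 to 6.56) overlapped H524 NeuroD1. Their median distance to H82 NeuroD1 was 128 kb. The 10 highest scored 13.7 to 17.5 and, being chosen without H82 NeuroD1, lay 2.75 to 267 kb from the nearest. None overlapped H524 NeuroD1, but against a share of 5.89% in the set, 10 regions are too few to show a lower one. Chromosome 12 held 4 of the 10 and 6.35% of all H82-only regions, and an excess there was not tested. The 4 were 54422051 to 54422694 (score 16.98), 16500508 to 16501850 (16.8), 125472740 to 125473704 (14.8) and 53447803 to 53448434 (13.7). Their distances to the H524 mark were 4.09, 257, 49.0 and 7.09 kb.

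Chromosome 8, with 5.03% of all H82-only regions, held 2. They were 128327557 to 128327994 (score 17.5) and 128322859 to 128324153 (score 16.6), 7.45 and 2.75 kb from H82 NeuroD1. Together with the NeuroD1 region of rank 12 they lay in a run of 9 H82-only regions from 128315610 to 128351839, which held 7 H82 NeuroD1, 3 H524 NeuroD1 and 1 H524 H3K4me3 regions. The remaining 4 were each on a chromosome of their own. At 202856753 to 202858576 on chromosome 1 the score was 16.6, and at 47754510 to 47755429 on chromosome 17 it was 14.8. At 96121004 to 96122481 on chromosome 10 it was 14.8, and at 159848891 to 159850362 on chromosome 5 it was 14.4. The chromosome 5 region lay 2.87 kb from the H524 mark, and the others 26.1, 28.9 and 39.8 kb.

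Regions beside centromere gaps were few but supplied the highest scores. On each chromosome, the longest interval free of regions in all 4 lists was taken as the gap. Within 2 Mb of a gap lay 175 H82-only regions (3.03%, 2.61 to 3.51), close to the 2.99% of all H82 H3K4me3 regions and the 3.05% (2.74 to 3.38) of the other narrow ones. Within 100 kb the shares were 0.503% (0.337 to 0.721) of the H82-only and 0.267% (0.180 to 0.381) of the other narrow regions. That difference was 0.236 points (0.045 to 0.468), at a limit chosen after seeing the data. The interval counts neighbouring regions as independent, and an excess is not shown by it. On chromosome 16, H82-only runs from 46385923 to 46403890 and from 46416737 to 46433158 held 5 regions each. The H82-only regions within 100 kb also include 186455593 to 186457566 on chromosome 4, at a gap near the end of the chromosome. Of the 10 highest-scoring H82-only regions, 6 were near a gap, all within 100 kb, and of the 500 highest 20 were. Among the 5 highest near a gap, 2 were on chromosome 16, from 46403405 to 46403890 and from 46389694 to 46390169. The remaining 3, on chromosome 10, spanned 42386962 to 42387404, then 42395936 to 42396244, then 42392643 to 42393060. They scored 98.1, 37.8, 81.4, 39.4 and 21.5, were 309 to 486 bp wide with 1 summit each, and lay 2.02 to 17.5 kb from the gap.

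H524 had H3K4me3 regions close to all 5, at 1.02, 1.04, 1.25, 6.48 and 3.19 kb in the same order, and those beside 46389694 and 42386962 scored 11.02 and 40.3. Both of those chromosome 16 regions and 42386962 on chromosome 10 thus entered by a margin of under 0.25 kb. None of the 29 regions within 100 kb of a gap overlapped NeuroD1 of either line (exact upper bound 11.9%). This bound includes the 5.83% and 8.06% of all H82-only regions, so with 29 regions a lower share was not detectable. Short reads from repeats beside centromeres can pile up in such places, which was not tested. Of the 175, 7 overlapped H82 NeuroD1, all 1.24 to 1.84 Mb from the gap, and the highest was 21002194 to 21003149 on chromosome 17 (score 10.9, NeuroD1 scores 6.80 and 3.54). On chromosome 4 the longest empty stretch, 186457567 to 190862222, was near the end of the chromosome and accounted for 7 of the 175. With the stretch from 49515855 to 52708572 in its place, the number was 171.

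H82-only regions were not spread evenly over the genome. On chromosome 10 they made up 389 of 530 narrow H82 regions (73.4%, 69.4 to 77.1), on chromosome 4 53.1% (49.1 to 57.1) and on chromosome 13 44.0% (39.4 to 48.8). On chromosome 22 they were 15.8% (11.2 to 21.4) and on chromosome 16 22.3% (19.0 to 26.01). The NeuroD1 lists, which the rule did not use, moved with this. H524 had 13.4-fold more NeuroD1 regions than H82 on chromosome 22, but 2.04-fold more on chromosome 10, where H524 H3K4me3 had 144 regions and H82 550. Over 23 chromosomes the H82-only share was lower where the log2 ratio of H524 to H82 NeuroD1 regions was higher (Pearson −0.767, Spearman −0.785). Without chromosomes 4 and 10 the coefficients were −0.842 and −0.777. Chromosomes are not independent samples, and both quantities come from the same pair of lines.

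**Figure D5:**
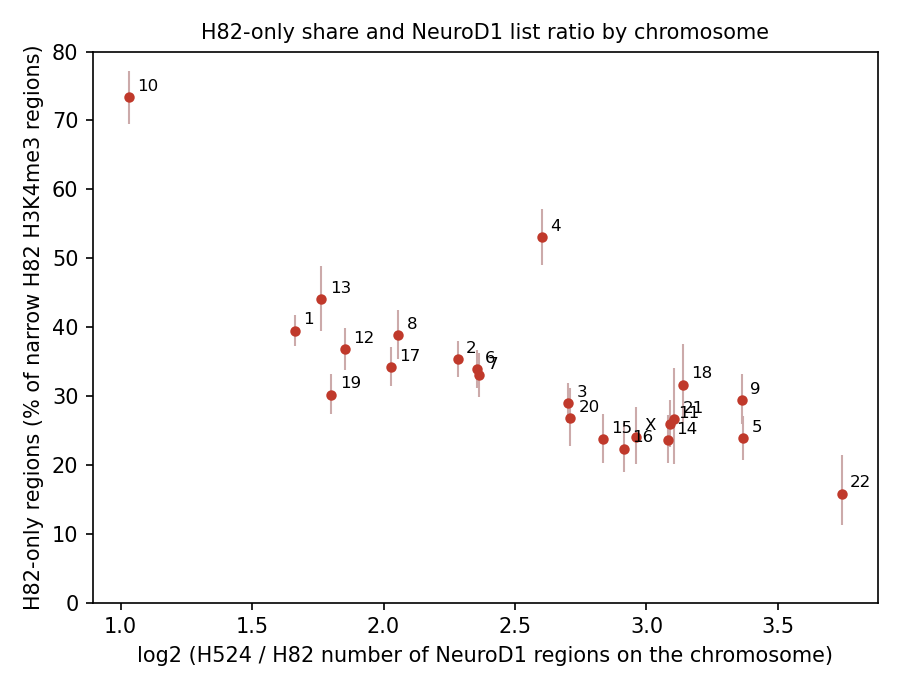
Each point is a chromosome, with the log2 ratio of H524 to H82 NeuroD1 regions on the x axis and the percentage of narrow H82 H3K4me3 regions that are H82-only, with exact 95% intervals, on the y axis. Chromosome 10 is highest at 73.4% with the lowest ratio, chromosome 22 lowest at 15.8% with the highest ratio, and chromosome 4 lies above the other chromosomes of its ratio.

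Inside chromosomes the excess came in long stretches. On chromosome 4 the H82-only share was 27.3% (21.0 to 34.3) below 70 Mb and 64.3% (59.5 to 68.8) from 70 to 190 Mb. H524 had 15.2-fold more NeuroD1 regions than H82 in the first stretch and 2.43-fold more in the second. On chromosome 17 the share was 64.0% (57.2 to 70.4) in the first 10 Mb and 26.9% (23.9 to 29.9) beyond, with NeuroD1 ratios of 1.20 and 4.78. From 70 to 90 Mb on chromosome 9 it was 83.9% (71.7 to 92.4), 47 of 56 regions, with a ratio of 1.29. From 90 to 100 Mb on chromosome 13 it was 71.9% (58.5 to 83.0), with a ratio of 2.62. These limits were chosen after the shares had been seen.

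Over all 284 blocks of 10 Mb with at least 15 narrow H82 regions, blocks were divided into 4 classes by their NeuroD1 ratio (H524 plus 1 over H82 plus 1). The H82-only share was 45.9% (44.6 to 47.2) in the class with the lowest ratios, then 32.5%, 27.0% and 23.4% (21.9 to 24.98) in the class with the highest. Across blocks rho was −0.583, and −0.508 without chromosomes 4 and 10. A lower yield of reads from these stretches in H524, as fewer copies would give, was not tested, since the input libraries were not analysed here. Without chromosomes 4 and 10 the contrast was −11.7 points (−12.8 to −10.6) for H524 NeuroD1 and 0.948 points (0.175 to 1.76) for H82 NeuroD1. Other stretches with fewer H3K4me3 regions in H524 than in H82 stayed in. Examples are the first 10 Mb of chromosome 17 (99 against 232) and 70 to 90 Mb on chromosome 9 (14 against 61). Leaving out chromosomes 4 and 10 is therefore no test of that yield.

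Some H82-only regions stood in runs. Joined over gaps of up to 12.5 kb, which was chosen with the lists in view, the regions formed 4132 groups, of which 3104 were a single region. Groups of 5 or more numbered 57 with 358 regions, and 4 of them were near a centromere gap. The other narrow regions were not joined in this way. More of those had an H82 neighbour within 1 kb (53.4% against 35.2%), so runs are not shown to be particular to H82-only regions. The group with the most regions, on chromosome 10 from 21785026 to 21823660, held 16 H82-only regions over 38.6 kb with a best score of 10.6, with 1 H524 H3K4me3 region and 1 NeuroD1 region in each line. The next by number, on chromosome 3 from 77094358 to 77136770, held 14 regions of low score over 42.4 kb (best 3.97) and no H524 mark. On chromosome 4, 11 regions lay from 87513877 to 87544916, again with no H524 mark. The runs on chromosomes 10 and 4 lie where H524 listed fewer H3K4me3 regions than H82. The counts were 144 against 550 on chromosome 10 and 199 against 448 from 70 to 190 Mb on chromosome 4. On chromosome 1, 10 regions filled 11.99 kb from 186422219 to 186434212 with no H524 mark and no NeuroD1 of either line. A run of 9 from 27436352 to 27474865 on chromosome 6 had 5 H524 H3K4me3 regions between its members and no NeuroD1. The runs thus include loci with the factor in both lines and loci without it.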

How the data were processed

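Chromatin immunoprecipitation libraries for NeuroD1 and H3K4me3 from untreated H82 and H524 cells were used as deposited peak lists, 1 per library, grouped by line and antibody per the labels. The submitters' processing notes name, among others, build hg19, MACS2 2.1.1 and Bowtie 1.1.2, without their role. Of peak settings and the use of input, nothing is given in the sources used here. Scores in the deposited lists were taken for −log10 q-values, since the lowest value in each list lay just above 1.301, the −log10 of 0.05; no header states the unit. Reads per library are unknown, so lists were not adjusted for depth.

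Entries with identical intervals were merged, keeping the highest score. Coordinates are 1-based hg19. Centromere gaps were inferred from the lists, counting from the first base of a chromosome but not past its last region. Overlap means at least 1 bp, and distance is that between nearest edges. Intervals of shares are exact Clopper-Pearson and of differences Newcombe; weighted differences have normal intervals. Regions are not independent draws. Python 3.11.15, numpy 2.4.6, pandas 2.3.3 and scipy 1.17.1 were used, and the counting was tested on simulated data. The regions and lists were chosen with earlier results of these data known. Named regions were the 10 highest-scoring with and without H82 NeuroD1 away from gaps, the 5 highest near a gap, and the 3 on each side of the limits of width and distance; runs, stretches and the highest region with NeuroD1 near a gap were named after their values were seen. The width, score and distance classes, the 10 Mb blocks, the 100 kb limit beside gaps, the weighting by width or score, the other chromosome 4 gap, the analysis without chromosomes 4 and 10, and the share with H524 NeuroD1 among regions with H82 NeuroD1 were likewise added after seeing the data. Planned gene lists, promoter windows and marker genes need an hg19 annotation, which was not used here, and for the same reason no sequence is shown.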

Additional observations from a re-analysis of the deposited data

Results flagged for a closer look

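H82-only minus other narrow H82 H3K4me3 regions was 0.587 percentage points for H82 NeuroD1 and −12.0 points for H524 NeuroD1, which is 12.6 points apart. For NeuroD1 of the own line, single-line minus other narrow regions gave 0.587 points for H82 against −13.1 points for H524, which is 13.7 points apart. Both were picked out because the values have opposite signs. The interval of the H82 value included 0 (−0.131 to 1.34). Its sign changed with direct overlap as the test of sharing (−0.907) and with no limit on width (−0.333). The value was above 0 under the other 10 of 12 alternatives, with intervals above 0 under 7. Among these, weighting by width gave 1.93 (1.22 to 2.64) and by score 2.11 (1.42 to 2.80). Opposite directions are thus not shown for the contrast as reported, and depend on the rule and the weighting. The NeuroD1 lists differ 5.34-fold in length, each rests on 1 library, and neither gap was tested. The contrast from the H524 list was not weighted by width or score.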

How the results depend on the processing

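The number of H82-only regions was 2037 with H82 H3K4me3 regions limited to the median score or above and 3820 with a separation of 5 kb, and it stayed within 1.5 times of 5767 under the other 7 alternatives. The H524 NeuroD1 difference was below 0 under all 12 alternatives. It was −13.2 points at or above the median score, −17.7 with NeuroD1 within 1 kb, −14.8 with direct overlap as the test of sharing, −14.3 with no limit on width, −13.2 with regions within 1 kb merged, −8.25 with 5 kb separation and −9.36 below 1000 bp. Weighting by score gave −8.71 and by width −8.51. The H82 NeuroD1 difference was above 0 under 10 of 12 alternatives, with intervals above 0 under 7. It was 2.13 at or above the median score, −0.907 with direct overlap, −0.333 with no limit on width, 2.30 with 5 kb separation, 2.11 weighted by score and 1.93 weighted by width. The difference in H524 NeuroD1 among regions with H82 NeuroD1 was −17.0 points with NeuroD1 within 1 kb, and within the interval of the reported value under the other 9. The share near a gap differed by −0.355 to 0.187 points under 11 alternatives. The median distance to the nearest other H82 H3K4me3 region, 1903 bp, was 11613 bp at or above the median score and 13417 bp after merging, where fewer regions remain. It was 1136 bp with direct overlap and 8770 bp with 5 kb separation. Otherwise the cause was not tested. Promoter window alternatives were not run, as no hg19 annotation was used here. No paired analysis was possible because each group has 1 library. The unknown depth limits every statement that a region is absent from a list.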
